A study of Mus musculus with 4 samples.

Results

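The genes described here are 36 markers of cells other than T cells: 14 of B cells, 16 of myeloid cells, 4 of red cells and 2 of platelets, out of 22479 genes used. They were chosen by name, as the rows of the 4 deposited tables that carry these symbols, to describe which other cells were present in each sorted population. All 36 were listed in every table. MHC class II genes were not among them. RNA was sequenced from mouse spleen cells on a C57BL/6 background, with 1 library in each of 4 groups. Invariant natural killer T (iNKT) cells are T cells that recognise lipids on CD1d, and were sorted with a T cell receptor beta antibody and CD1d tetramers carrying PBS-57. CD44-high CD4+ T cells (CD44hi), the antigen-experienced part of the CD4+ T cells, were sorted with antibodies to T cell receptor beta, CD44 and CD4. Wild-type mice gave the libraries called WT iNKT and WT CD44hi. The libraries called KO iNKT and KO CD44hi came from animals of the genotype Ezh2fl/fl CD4-Cre, where Cre driven by Cd4 sequences is meant to remove a floxed part of Ezh2 in the T cell lineage. The lineages marked by these 36 genes are not the target of this Cre. Age, treatment and the number of mice behind a library are not given in the sources used here.

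B cells detect antigen through a surface immunoglobulin that signals through CD79A and CD79B, and their identity is kept by the transcription factors PAX5 and EBF1. Myeloid cells of the spleen include macrophages, which make complement C1q and lysozyme and depend on the receptor CSF1R, and dendritic cells, among them plasmacytoid dendritic cells that share several genes with B cells. Red cells carry haemoglobin RNA until late in their maturation, and platelets carry chemokine RNA from megakaryocytes. None of these lineages carries the T cell receptor used for both sorts, so their transcripts in a sorted T cell library are commonly read as other cells, cell fragments or free RNA. In bulk RNA, fewer cells of a type and less RNA per cell cannot be told apart.

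Values are FPKM, that is fragments per length of transcript and per depth of library, so levels can be compared between genes. From the steps between low values, KO iNKT was estimated to hold 1.08, WT CD44hi 3.68 and KO CD44hi 4.89 times the fragments of the WT iNKT library. In a transcript of 2 kilobases, 3 fragments correspond to 0.320, 0.297, 0.0870 and 0.0654 FPKM in WT iNKT and these 3 libraries. A marker counts as measured in a pair of libraries if either holds it at 1 FPKM or more. It counts as called if log2(FPKM + 1) differs by 1 or more, that is 2-fold on that scale, which makes differences of low values look smaller. Ratios are plain ratios of FPKM, and those with an interval carry an approximate 95% interval (exact, Clopper-Pearson) worked out from estimated fragments, which covers counting error only. With 1 library per group no difference had a replicate check and no test was made. All 18 genes of a T cell list were at 1 FPKM or more in every library, with Cd3g, a chain of the T cell receptor complex, at 513 FPKM in the WT and 519 in the KO iNKT library and 542 FPKM in the WT and 631 in the KO CD44hi library. The Y-linked gene Ddx3y was at 11.5 FPKM in WT CD44hi, listed at 0 in both iNKT libraries and at 0.00445 in KO CD44hi, while the X-linked Xist of female cells was at 46.8 there and at 55.3 to 80.0 in the other 3. WT CD44hi alone thus held RNA of cells of both sexes, which cannot be told apart from its genotype in the CD44hi pair. Ezh2 was at 15.3 FPKM in the WT and 16.8 in the KO iNKT library and 28.9 FPKM in the WT and 18.5 in the KO CD44hi library, but FPKM over a whole gene does not check the removal of a part of it. The depth and the number of rows also differed between the iNKT and CD44hi tables, and a batch of that kind and the cell type cannot be told apart.

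The markers were much higher in the CD44hi libraries than in the iNKT libraries, and highest in KO CD44hi. Together the 36 genes took 0.553% of the summed FPKM of all genes in KO CD44hi and 0.276% in WT CD44hi, but 0.0275% in KO iNKT and 0.0375% in WT iNKT. In 33 of the 36 both CD44hi values lay above both iNKT values. The other 3 were the B cell marker Cd72 and the platelet markers Pf4 and Ppbp. KO CD44hi held the highest value of 30 markers, WT CD44hi of 5 (Cd22, Ebf1, Pou2af1, Lyz2 and Csf1r) and KO iNKT of 1 (Ppbp).

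**Figure D1:**
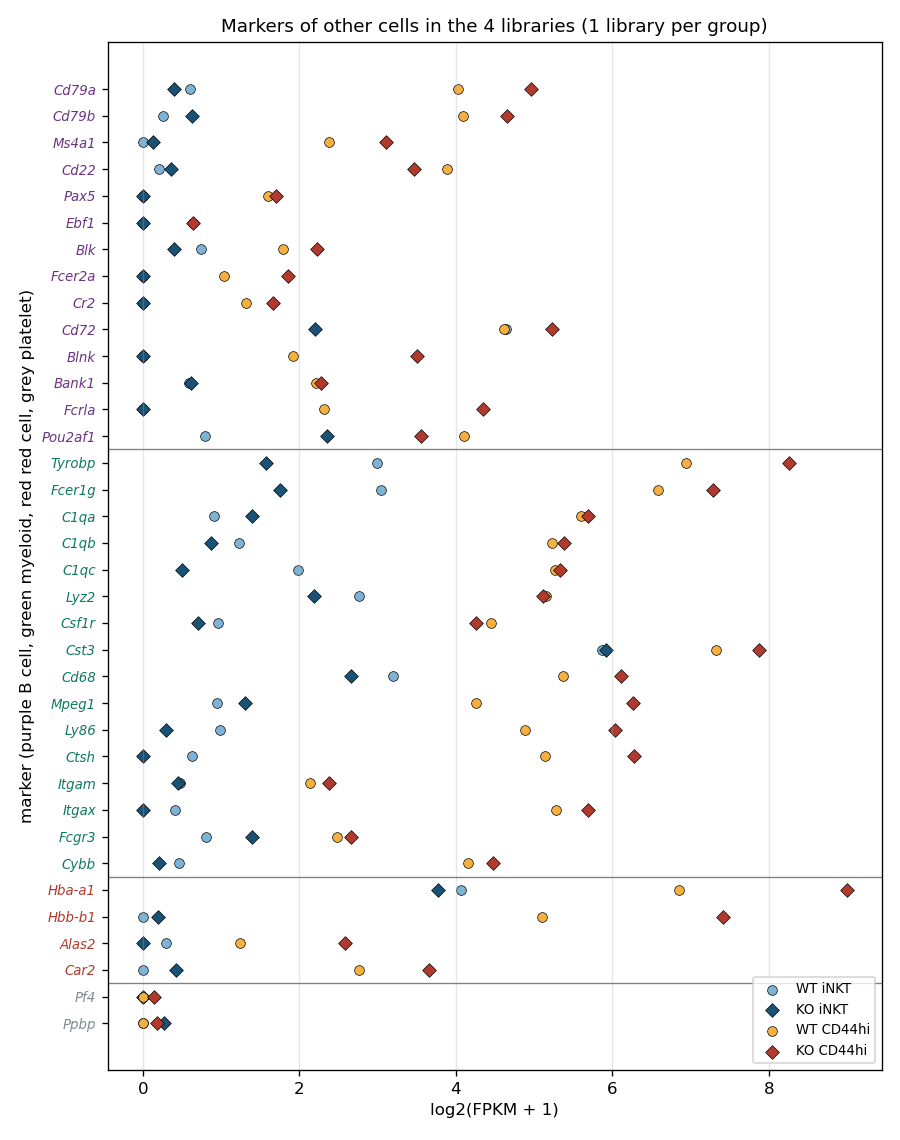
Level of each of the 36 markers as log2(FPKM + 1) in the 4 libraries, 1 point per library, with circles for WT and diamonds for KO. In 33 markers both CD44hi points lie to the right of both iNKT points; Cd72 and the platelet genes Pf4 and Ppbp are the exceptions.

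Between cell types, 31 of 33 measured markers were called higher in WT CD44hi than in WT iNKT and 0 lower, against 10.9% of all measured genes called higher and 3.65% lower. The 2 not called were Cd72 and Alas2. In the KO pair 33 of 33 were called higher in KO CD44hi than in KO iNKT, against 9.07% of all measured genes called higher (3.03% lower). Of the 36 markers, 33 were at 1 FPKM or more in each CD44hi library, but 9 in WT iNKT and 11 in KO iNKT. Most thus counted as measured only through the CD44hi library where they were high, and for those a lower call was not possible. The median log2 difference was 1.92 over the B cell markers, 3.52 over the myeloid markers and 2.77 over the red cell markers in WT, and 2.97, 4.40 and 4.23 in KO. Over all measured genes it was 0.06 in WT and 0.02 in KO. The members nearest to the 2-fold line were Fcer2a (log2 difference 1.04) and Blk (1.05) just inside it and Alas2 (0.95) just outside in WT, and Pou2af1 (1.20) and Fcgr3 (1.27) just inside it in KO.

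The summed FPKM of the B cell markers was 26.7 (WT iNKT), 9.77 (KO iNKT), then 107 (WT CD44hi) and 164 (KO CD44hi). For the myeloid markers it was 96.2, 79.9, 736 and 1241 in the same order, and for the red cell markers 16.0, 13.1, 155 and 695. Red cell markers stood furthest apart in the CD44hi pair: the KO to WT ratio of sums was 1.53 for B cell, 1.69 for myeloid and 4.48 for red cell markers. With FPKM divided by a factor for the T cell list these ratios were 2.07, 2.28 and 6.06. The factor was 1.38 in WT CD44hi and 1.02 in KO CD44hi. It is the list's median of each gene's level relative to its geometric mean over the 4 libraries. The T cell list itself had a median KO to WT ratio of 0.751 in CD44hi.

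**Figure D2:**
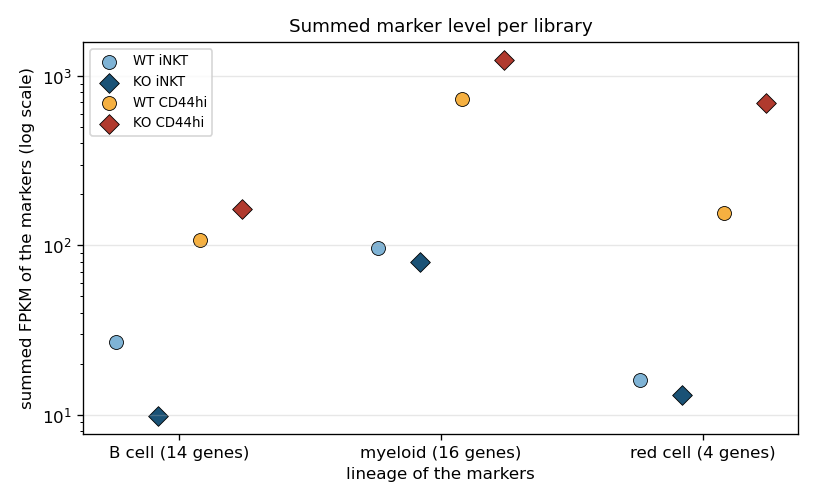
Summed FPKM of the markers of each lineage (log axis) in the 4 libraries, 1 point per library. The CD44hi sums lie above the iNKT sums in all 3 lineages, and the gap between WT and KO CD44hi is widest for red cell markers (155 and 695 FPKM).

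The CD44hi pair compares the marker levels of 1 KO library with those of 1 WT library, and the source of the marker RNA was not tested. Of 33 measured markers 9 were called higher in KO CD44hi and 0 lower, against 2.44% of all measured genes called higher and 1.14% lower. These were the B cell markers Blnk and Fcrla, the myeloid markers Tyrobp, Mpeg1, Ly86 and Ctsh, and the red cell markers Hba-a1, Hbb-b1 and Alas2. Irrespective of the 2-fold line, 29 of the 33 had the larger value in KO CD44hi, and the 4 with the smaller value were Cd22, Pou2af1, Lyz2 and Csf1r, of which the last 2 turned to ratios of 1.32 and 1.18 when scaled by the T cell list. That scaling gave 16 markers called higher in place of 9, beside 4.8% of all measured genes called higher and 0.472% lower. The median log2 difference was 0.56 over 13 B cell markers, 0.36 over 16 myeloid markers and 1.74 over 4 red cell markers, beside 0.01 over all measured genes. Nearest to the 2-fold line were Ctsh (1.13) and Ly86 (1.15) inside it and Cd79a (0.93) and Car2 (0.90) outside.

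Among B cell markers, the signalling chains of the B cell receptor were higher in KO CD44hi without reaching 2-fold on the log2(FPKM + 1) scale. Cd79a (chromosome 7, 24897381 to 24902197, GRCm38 in GENCODE M21, as for the positions of genes given below) was at 15.3 FPKM in CD44hi cells from WT mice and 30.1 in those from KO mice, beside 0.517 and 0.319 in the matching iNKT libraries. The KO to WT ratio in CD44hi was 1.97 (interval 1.75 to 2.23), and the 2 iNKT values stood on an estimated 3.42 and 2.28 fragments. Cd79b, its partner chain, was at 16.1 FPKM in CD44hi cells from WT mice and 24.2 in those from KO mice, beside 0.195 and 0.541 in the matching iNKT libraries, a CD44hi ratio of 1.51 (1.32 to 1.72). Both chains were thus near the counting limit in iNKT cells and well above it in both CD44hi libraries.

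Surface proteins of B cells, taken here together with the intracellular Fcrla, did not follow 1 common ratio. Ms4a1, which encodes CD20, was at 4.22 FPKM in the WT and 7.59 in the KO CD44hi library, with 0.0967 in KO iNKT and a listed 0 in WT iNKT, a CD44hi ratio of 1.80 (1.54 to 2.11). Cd22, an inhibitory lectin of the B cell receptor, went the other way: it was at 13.8 FPKM in CD44hi cells from WT mice and 10.1 in those from KO mice, beside 0.154 and 0.285 in the matching iNKT libraries, so that WT CD44hi was 1.37 times KO CD44hi (1.25 to 1.51). Fcer2a, the low-affinity IgE receptor CD23, and Cr2, the complement receptor of mature B cells, were listed at 0 in both iNKT libraries. In WT and KO CD44hi Fcer2a was at 1.05 and 2.60 FPKM and Cr2 at 1.495 and 2.17. Fcrla (chromosome 1, 170917576 to 170927583), an intracellular Fc receptor-like protein of B cells, had the largest ratio of the B cell markers. It was at 3.97 FPKM in the WT and 19.4 in the KO CD44hi library and listed at 0 in the 2 iNKT tables, a ratio of 4.89 (3.96 to 6.07).

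Cd72, a B cell coreceptor with an inhibitory tail, stood apart from the other 13 B cell markers. It was at 23.6 FPKM in CD44hi cells from WT mice and 36.4 in those from KO mice, beside 23.9 and 3.59 in the matching iNKT libraries. WT iNKT was therefore at the level of WT CD44hi, with a WT CD44hi to WT iNKT ratio of 0.986 (0.822 to 1.18), although Cd79a, Cd79b and Ms4a1 were below 1 FPKM there. Cd72 made up most of the WT iNKT sum of 26.7 FPKM. Without Cd72 and Pou2af1 the other 12 B cell markers summed to 2.06 FPKM (WT) and 2.09 (KO) in the iNKT pair and to 67.4 (WT) and 117 (KO) in the CD44hi pair.

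The signalling genes ranged from no difference beyond counting error to nearly 4 times. Blnk (chromosome 19, 40928927 to 40994535), the linker that couples the B cell receptor to its downstream enzymes, was at 2.77 FPKM in the WT and 10.4 in the KO CD44hi library and listed at 0 in the 2 iNKT tables, a ratio of 3.73 (2.99 to 4.76). Blk, a Src family kinase of B cells, was at 2.47 FPKM in CD44hi cells from WT mice and 3.69 in those from KO mice, beside 0.682 and 0.315 in the matching iNKT libraries, a CD44hi ratio of 1.49 (1.17 to 1.92). Bank1, a B cell scaffold protein, was at 0.509 FPKM in the WT and 0.530 in the KO iNKT library and at 3.62 FPKM in the WT and 3.83 in the KO CD44hi library, where the interval of its ratio (1.06, 0.871 to 1.29) included 1.

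The transcription factors had CD44hi ratios near or below 1. Pax5, the B cell commitment factor, was at 2.04 FPKM in the WT and 2.24 in the KO CD44hi library and listed at 0 in the 2 iNKT tables, a ratio of 1.10 (0.728 to 1.68). Ebf1, which acts with it, was also listed at 0 in both iNKT libraries and reached only 0.566 FPKM in the WT and 0.561 in the KO CD44hi library, below the 1 FPKM needed to be measured and with a direction that turned under the T cell scaling. Pou2af1 (chromosome 9, 51213708 to 51240080), a coactivator that works with octamer-binding factors, was at 16.3 FPKM in CD44hi cells from WT mice and 10.7 in those from KO mice, beside 0.737 and 4.09 in the matching iNKT libraries. WT CD44hi was 1.52 times KO CD44hi for this gene (1.36 to 1.69), and KO iNKT was 5.55 times WT iNKT (2.72 to 12.8). Follicular helper T cells are known to express Pou2af1. Cd22 and Pou2af1 had KO to WT ratios below 1 in the CD44hi pair under all 4 scalings, of which 1 is the FPKM as deposited. Scaled by the T cell list these ratios were 0.986 and 0.893, so that Cd22 was then close to 1.

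Myeloid markers split in the CD44hi pair. None of 5 genes of the macrophage programme was called, while 1 of 3 adaptor and Fc receptor genes (Tyrobp) and 3 of 5 lysosomal genes (Mpeg1, Ly86 and Ctsh) were called higher in KO CD44hi. Of all measured genes 2.44% were called higher and 1.14% lower. C1qa, C1qb and C1qc, which encode the chains of complement C1q and lie side by side on chromosome 4 (136880129 to 136898803), were at 47.3, 36.6 and 37.5 FPKM in WT CD44hi and at 50.5, 40.8 and 39.3 in KO CD44hi. Their ratios were 1.07 (0.974 to 1.17), 1.11 (1.01 to 1.23) and 1.05 (0.952 to 1.15). Lyz2, the lysozyme of macrophages and neutrophils, was at 34.7 FPKM in the WT and 33.7 in the KO CD44hi library, beside 5.79 FPKM in the WT and 3.57 in the KO iNKT library. Csf1r, the receptor for the macrophage growth factor CSF1, was at 20.8 FPKM in the WT and 18.2 in the KO CD44hi library, beside 0.949 FPKM in the WT and 0.634 in the KO iNKT library. Their CD44hi ratios were 0.971 (0.883 to 1.07) and 0.872 (0.816 to 0.933), with the turn under the T cell scaling given above.

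Over these 5 macrophage genes the ratio of sums was 1.03. It was 0.981 when every library was scaled to 1 total and 1.40 when scaled by the T cell list, so its direction depended on the scaling. Under none of the 4 scalings was any of the 5 called.

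Of the adaptors that pair with activating receptors, Tyrobp was called higher in KO CD44hi and Fcer1g was not. Tyrobp (chromosome 7, 30413760 to 30417585), which encodes the adaptor DAP12 of myeloid and NK cells, was at 121 FPKM in CD44hi cells from WT mice and 305 in those from KO mice, beside 6.95 and 1.98 in the matching iNKT libraries, a CD44hi ratio of 2.51 (2.34 to 2.71). Fcer1g, the common Fc receptor gamma chain, was at 95.2 FPKM in CD44hi cells from WT mice and 155 in those from KO mice, beside 7.25 and 2.37 in the matching iNKT libraries, a CD44hi ratio of 1.63 (1.51 to 1.76). Fcgr3, an Fc receptor for IgG that needs this gamma chain, was far lower, at 0.758 FPKM in the WT and 1.64 in the KO iNKT library and 4.59 FPKM in the WT and 5.35 in the KO CD44hi library, and the interval of its CD44hi ratio (1.16, 0.905 to 1.52) included 1. The 2 adaptor genes were therefore at 217 FPKM together in WT CD44hi and 460.1 in KO CD44hi, beside 4.59 and 5.35 of the Fc receptor.

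Among the myeloid markers, genes of lysosomes and antigen handling had the widest range of CD44hi ratios. Mpeg1 (chromosome 19, 12460779 to 12465283), which encodes the pore-forming protein perforin-2, was at 18.2 FPKM in CD44hi cells from WT mice and 75.8 in those from KO mice, beside 0.937 and 1.47 in the matching iNKT libraries, the largest ratio of the myeloid markers in the CD44hi pair at 4.18 (3.95 to 4.42). Ly86, the MD-1 protein that pairs with RP105 on B cells and myeloid cells, was at 0.976 FPKM in the WT and 0.226 in the KO iNKT library and 28.5 FPKM in the WT and 64.5 in the KO CD44hi library, a ratio of 2.27 (2.05 to 2.51). Ctsh, the lysosomal protease cathepsin H, was at 34.3 FPKM in the WT and 76.1 in the KO CD44hi library, with 0.546 in WT iNKT and a listed 0 in KO iNKT, a ratio of 2.22 (2.06 to 2.40). Cd68, a lysosomal membrane protein, was at 40.2 FPKM in CD44hi cells from WT mice and 68.0 in those from KO mice, beside 8.18 and 5.35 in the matching iNKT libraries (CD44hi ratio 1.69). Cst3, the protease inhibitor cystatin C, was the highest member in both iNKT libraries, at 159 FPKM in CD44hi cells from WT mice and 233 in those from KO mice, beside 57.5 and 59.2 in the matching iNKT libraries. Its CD44hi ratio was 1.47 (1.39 to 1.55). Every other myeloid marker was lower in the iNKT libraries. In WT iNKT they ran from 8.18 FPKM (Cd68) down to 0.329 (Itgax). In KO iNKT they ran from 5.35 FPKM (Cd68) down to a listed 0 (Ctsh and Itgax).

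The integrins and the oxidase lay between these groups. Itgax, which encodes CD11c of dendritic cells, was at 37.8 FPKM in the WT and 50.6 in the KO CD44hi library, with 0.329 in WT iNKT and a listed 0 in KO iNKT, a ratio of 1.34 (1.26 to 1.42). Itgam, which encodes CD11b, was much lower, at 3.39 FPKM in the WT and 4.22 in the KO CD44hi library (0.389 FPKM in the WT and 0.360 in the KO iNKT library). Cybb, the catalytic subunit of the phagocyte oxidase, was at 0.383 FPKM in the WT and 0.158 in the KO iNKT library and at 16.8 FPKM in the WT and 21.1 in the KO CD44hi library. The CD44hi ratios of Itgam and Cybb were 1.25 (1.06 to 1.46) and 1.25 (1.18 to 1.34).

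Of the 16 myeloid markers, 9 are also known from plasmacytoid dendritic cells: Tyrobp, Fcer1g, Cst3, Cd68, Mpeg1, Ly86, Ctsh, Cybb and Itgax. Their KO to WT ratios in CD44hi ran from 1.25 to 4.18 with a median of 1.69. Of the 9, 4 were called higher, beside 2.44% of all measured genes. The other 7 ran from 0.872 to 1.25 with a median of 1.07, and 0 of the 7 were called. As sums the first group went from 551 to 1049 FPKM and the second from 185 to 192. Both groups were drawn up with earlier results of these data known, so their contrast is a description only. B cell markers did not divide in this way: the 6 also known from plasmacytoid dendritic cells (Blnk, Blk, Bank1, Cd72, Pou2af1 and Ebf1) had a median ratio of 1.49 over the 5 measured, and the other 8 a median of 1.65.

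Beside these values, a list of 12 plasmacytoid dendritic cell genes had 10 called higher in KO CD44hi and 0 lower, against 2.44% and 1.14% of all measured genes. The list had a median ratio of 4.70. Its sum was 219 FPKM in WT CD44hi and 806 in KO CD44hi, beside 157 in WT iNKT and 119 in KO iNKT. Ly6d went from 34.7 to 174 FPKM and Siglech, a receptor that defines these cells, from 11.1 to 75.7, and Siglech was listed at 0 in both iNKT libraries. A list of 9 conventional dendritic cell genes had 3 higher and 1 lower, with a median of 1.83 over the 7 at 1 FPKM in both. Those higher were Irf8 (22.9 FPKM in WT and 105 in KO CD44hi), Clec10a (1.34 and 16.2) and Clec9a (1.56 and 7.87). Irf8 is a factor that plasmacytoid cells and B cells also express. The one lower was Itgae (6.25 and 0.949). Cd209a (12.8 and 23.3) and Flt3, the receptor for the dendritic cell growth factor (11.8 and 20.2), were not called. In 16 measured genes of a further macrophage and monocyte list 1 was higher and 0 lower, with a median ratio of 0.987 over the 14 at 1 FPKM in both. The one called was Ly6c2 (48.9 and 161 FPKM), which T cells also express, while Hmox1, the haem-degrading enzyme of red pulp macrophages, was at 44.5 and 46.6. The part of plasmacytoid dendritic cells in the marker differences was not tested.

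**Figure D3:**
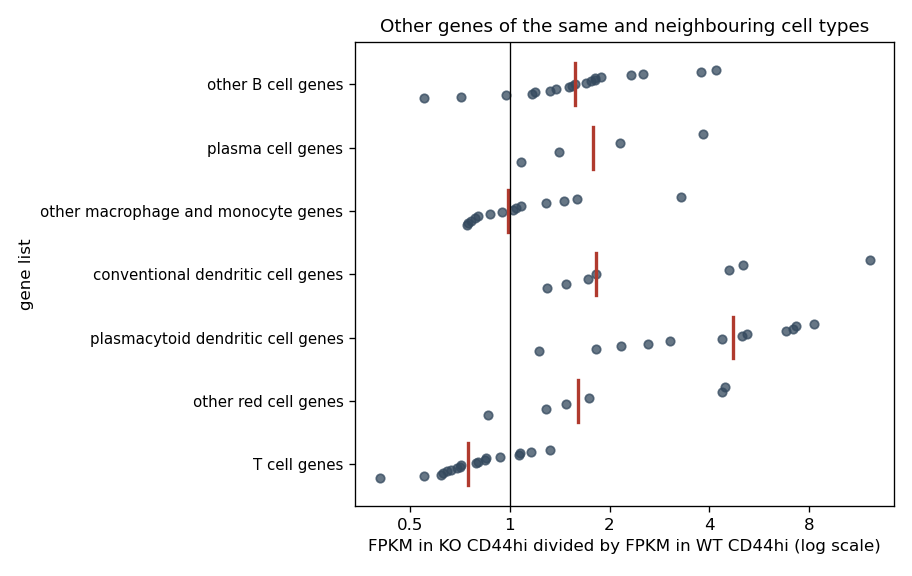
FPKM in KO CD44hi divided by FPKM in WT CD44hi (log axis) for genes of 7 other lists at 1 FPKM or more in both libraries, 1 point per gene, with a red line at each list's median. The median is 4.70 for plasmacytoid dendritic cell genes, 0.987 for macrophage and monocyte genes and 0.751 for T cell genes.

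A further list of 19 B cell genes had 3 higher and 0 lower in the CD44hi pair, against 2.44% and 1.14% of all measured genes. The list lay close to the B cell markers, with a median ratio of 1.58 beside 1.51 for the markers. In it Napsa, an aspartic protease, was at 36.2 FPKM in the WT and 63.5 in the KO CD44hi library, and Cd83, an activation antigen of B cells and dendritic cells, went the other way (42.2 and 30.1). Cd37 was at 196 FPKM in the WT and 259.9 in the KO CD44hi library and at 247 FPKM in the WT and 220.5 in the KO iNKT library and so did not follow the B cell markers across cell types; it is a tetraspanin of many leukocytes. Plasma cell genes had 2 of 6 higher and 0 lower, with the highest level in Igj, the joining chain of secreted immunoglobulin (40.3 and 154 FPKM).

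Promoter windows were searched for 2 letter strings that relate to these lineages, the octamer ATTTGCAT, which the partners of POU2AF1 bind, and GAGGAAGT, a form of the site of the myeloid and B cell factor PU.1. The windows, from RefSeq on GRCm38.p6, run from 250 bases before to 50 after a gene's start, and 27 of the 36 markers had one. On either strand the octamer was present in 1 of 11 B cell markers (Blnk) and 0 of 12 myeloid markers, beside 1.97% of all 27025 genes. The second string was present in 1 B cell marker (Cd72), 1 myeloid marker (C1qc) and 1 platelet marker (Pf4), beside 3.69% of all genes. The 2 strings do not overlap in these windows. The windows of Blnk, Cd72 and C1qc are shown because they hold the matches among the measured markers, with the match in capitals, 5′ to 3′ on each gene's own strand, the minus strand in all 3. They are chr19:40994172-40994471 for Blnk, chr4:43454577-43454876 for Cd72 and chr4:136892865-136893164 for C1qc, and the match starts 130, 49 and 195 bases before the start site. In Cd72 and C1qc the match reads on the opposite strand. Start sites here are those of RefSeq. The GENCODE Blnk gene given above runs to 40994535, so the Blnk window lies inside that gene.
Blnk: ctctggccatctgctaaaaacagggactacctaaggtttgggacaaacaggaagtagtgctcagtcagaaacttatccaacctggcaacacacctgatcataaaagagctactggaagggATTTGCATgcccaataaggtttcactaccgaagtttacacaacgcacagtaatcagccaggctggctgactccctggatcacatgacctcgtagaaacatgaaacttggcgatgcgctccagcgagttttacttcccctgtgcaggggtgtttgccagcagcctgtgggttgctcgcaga
Cd72: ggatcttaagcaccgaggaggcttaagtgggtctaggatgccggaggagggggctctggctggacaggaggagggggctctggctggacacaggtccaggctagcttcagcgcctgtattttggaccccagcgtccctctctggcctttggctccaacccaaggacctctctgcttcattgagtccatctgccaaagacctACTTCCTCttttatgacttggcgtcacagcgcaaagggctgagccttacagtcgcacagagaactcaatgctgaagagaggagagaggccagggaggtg
C1qc: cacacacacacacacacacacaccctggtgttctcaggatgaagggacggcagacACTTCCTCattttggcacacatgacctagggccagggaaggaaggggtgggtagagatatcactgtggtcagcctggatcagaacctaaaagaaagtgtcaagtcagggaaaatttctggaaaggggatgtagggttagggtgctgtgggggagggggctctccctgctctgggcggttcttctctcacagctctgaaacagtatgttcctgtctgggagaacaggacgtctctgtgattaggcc

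The 3 genes with a match behaved differently in the CD44hi pair (ratios of 3.73, 1.54 and 1.05), and a match is a description of letters, not of binding.

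Red cell markers had the largest difference between the CD44hi libraries. Hba-a1 (chromosome 11, 32283511 to 32284465), which encodes alpha globin, was at 115 FPKM in CD44hi cells from WT mice and 509 in those from KO mice, beside 15.8 and 12.6 in the matching iNKT libraries, a CD44hi ratio of 4.44 (4.17 to 4.72). Hbb-b1, a beta globin symbol, was at 33.4 FPKM in the WT and 169 in the KO CD44hi library, a ratio of 5.07. Alas2 (chromosome X, 150547375 to 150570638), the first enzyme of haem synthesis in red cell precursors, was at 1.37 FPKM in the WT and 5.02 in the KO CD44hi library, with 0.224 in WT iNKT and a listed 0 in KO iNKT, a ratio of 3.67 (2.68 to 5.19). Car2, a carbonic anhydrase of red cells and other tissues, was at 5.76 FPKM in the WT and 11.6 in the KO CD44hi library, with 0.339 in KO iNKT and a listed 0 in WT iNKT, with a smaller ratio of 2.02 (1.69 to 2.41). All 4 were thus higher in KO CD44hi, under each of the 4 scalings.

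Globin genes exist in near-identical copies, and the tables divided their fragments between copies differently in the 2 cell types. Hbb-b1 was at 0.000665 FPKM in the WT and 0.144 in the KO iNKT library while Hbb-b2, its close copy, was at 2.62 and 4.92. The CD44hi tables had the opposite order, with Hbb-b2 at 0.000127 and 0.000164 FPKM. Hba-a1 stood on 2 rows of each table, which were added, and Hba-a2 was at 38.0 FPKM in KO CD44hi but at 0.00219 in WT CD44hi and at 0.00388 and 0.00434 in the iNKT pair. Single globin genes are therefore uncertain, and their sum is given too. The alpha and beta rows together came to 148 (WT) and 716 FPKM (KO) in the CD44hi pair and 18.4 (WT) and 17.7 (KO) in the iNKT pair, a CD44hi ratio of 4.84 and an iNKT ratio of 0.959.

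In a further list of red cell genes, 5 of 10 measured were higher in KO CD44hi and 0 lower, against 2.44% and 1.14% of all measured genes. The median ratio was 1.61 over the 6 of the list at 1 FPKM in both libraries. The red cell membrane gene Slc4a1, the anion exchanger, named after its values were seen, was at 1.65 FPKM in the WT and 7.25 in the KO CD44hi library. The 3 members of that list with the highest mean over the 4 libraries, the mitochondrial iron carrier Slc25a37, the transferrin receptor Tfrc and the enzyme Bpgm, were not called. Slc25a37 was at 12.4 FPKM in the WT and 18.4 in the KO CD44hi library, Tfrc at 9.90 FPKM in the WT and 17.1 in the KO CD44hi library and Bpgm at 14.6 FPKM in the WT and 12.5 in the KO CD44hi library. Lymphocytes also express Slc25a37 and Tfrc.

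Platelet markers were at or near 0 in all 4 libraries, unlike the markers of the other 3 lineages. Pf4, platelet factor 4, was listed at 0 in 3 libraries and was at 0.103 FPKM in KO CD44hi. Ppbp, a chemokine precursor of platelets, was listed at 0 in both WT libraries and was at 0.204 in KO iNKT and 0.135 in KO CD44hi. Each nonzero value stood on at most 3.13 estimated fragments, so a difference was not detectable at this depth. In a further platelet list 1 of 5 measured genes was higher in KO CD44hi, against 2.44% of all measured genes. The 1 called was Nrgn, at 6.75 FPKM in the WT and 172 in the KO iNKT library. In CD44hi Nrgn was at 4.34 FPKM in the WT and 14.5 in the KO library. Its highest value was in KO iNKT, where Pf4 was listed at 0 and Ppbp was at 0.204. The source of the Nrgn RNA was not tested. Neutrophil genes had 0 of 2 measured called in the CD44hi pair, and S100a8 and S100a9, which are very abundant in neutrophils, were listed at 0 in WT CD44hi and were at 0.210 and 0.139 FPKM in KO CD44hi. Mast cell and basophil genes had 0 of 8 at 1 FPKM in either CD44hi library.

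In the iNKT pair 13 markers were measured, and 1 was called higher in KO iNKT (Pou2af1, above) and 4 lower, against 6.08% of all measured genes called higher and 3.35% lower. The 4 lower ones were Cd72, Tyrobp, Fcer1g and C1qc. The median log2 difference was -0.45 over 10 measured myeloid markers, beside 0.05 over all genes. Cd72 had the firmest difference: WT iNKT was 6.66 times KO iNKT (4.34 to 10.6). For Tyrobp WT iNKT was 3.51 times KO iNKT (1.29 to 16.8) and for Fcer1g 3.06 times (1.18 to 8.25), on an estimated 4.48 and 6.84 fragments in KO iNKT. All 3 had the smaller value in KO iNKT and the larger value in KO CD44hi, each against the WT library of that cell type.

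C1qc was at 2.96 FPKM in the WT and 0.421 in the KO iNKT library, but the other 2 C1q genes did not share its ratio. C1qa was at 0.882 and 1.63 FPKM and C1qb at 1.35 and 0.835, on between 3.98 and 7.94 estimated fragments in either library. Lyz2 and Cd68 were at 1.62 and 1.53 times the KO value in WT iNKT, with intervals that included 1 (0.913 to 2.84 and 0.928 to 2.59). Cst3 did not differ beyond counting error (1.03, 0.850 to 1.25), nor did Hba-a1 (0.798, 0.505 to 1.26). Fcgr3 and Lyz2 were the members nearest to the 2-fold line from outside, with log2 differences of 0.58 and -0.57, and Fcer1g (-1.29) and Tyrobp (-1.42) the nearest inside it.

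**Figure D4:**
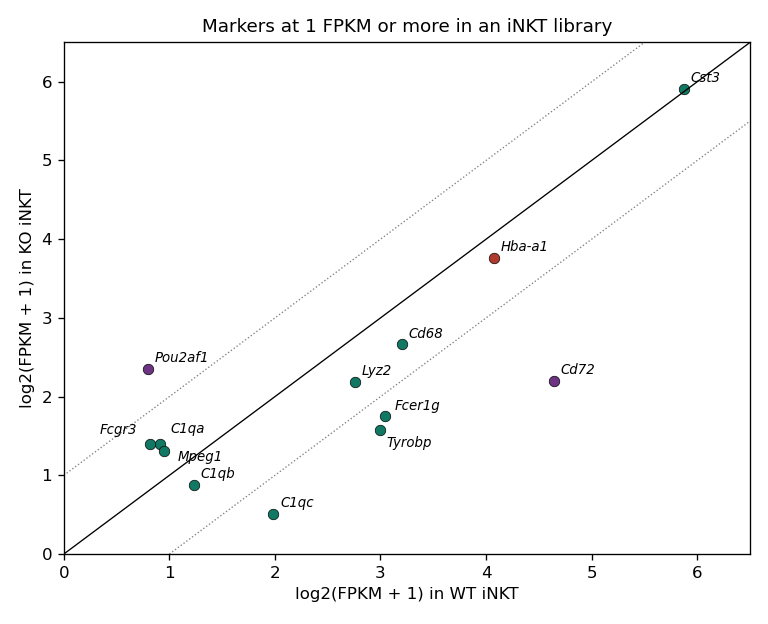
log2(FPKM + 1) in KO iNKT against WT iNKT for the 13 markers at 1 FPKM or more in either iNKT library, coloured by lineage (purple B cell, green myeloid, red red cell). The solid line marks equal values and the dotted lines a difference of 1. Cd72, Tyrobp, Fcer1g and C1qc lie below the lower dotted line and Pou2af1 above the upper one.

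Tyrobp and Fcer1g are also expressed by NK cells and some T cells. In a list of 8 NK cell genes, 3 of 7 measured were higher in KO iNKT and 3 lower, against 6.08% and 3.35% of all measured genes. The 3 higher were Gzma (1.72 FPKM in WT and 89.0 in KO iNKT), Eomes (a listed 0 and 3.90) and Klra8 (1.09 and 3.33). The 3 lower were Klrk1 (75.4 and 22.3), Klre1 (25.7 and 5.81) and Prf1 (11.6 and 1.45). The list summed to 293 (WT) and 222 FPKM (KO) in the iNKT pair and 48.8 (WT) and 94.8 (KO) in the CD44hi pair. The iNKT sums thus join genes that moved in opposite directions. Klrb1c, which encodes NK1.1 and is carried by iNKT cells themselves, was at 177 FPKM in the WT and 96.2 in the KO iNKT library and 14.9 FPKM in the WT and 58.5 in the KO CD44hi library. Ncr1, a defining NK cell receptor, was at 0.154 FPKM in the WT and 0.285 in the KO iNKT library and at 1.42 FPKM in the WT and 0.565 in the KO CD44hi library. The part of NK cells in the values of the 2 adaptors was not tested.

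The T cell list had 0 genes higher and 1 lower of 18 in KO CD44hi against WT CD44hi, beside 2.44% and 1.14% of all measured genes. Ratios in the list ran from 0.406 (Ubash3a) to 1.32 (Cd3d). Cd4, used for the CD44hi sort, was at 405 FPKM in the WT and 252 in the KO CD44hi library. Of the CD8 T cell genes, Cd8b1 was at 9.87 FPKM in the WT and 13.8 in the KO CD44hi library and Cd8a at 1.33 FPKM in the WT and 3.27 in the KO CD44hi library. Of stromal and endothelial genes 1 of 4 measured was higher, with Pecam1, which platelets and T cells also carry, at 38.4 and 42.9. A T cell list with a median ratio below 1, 10 of 12 plasmacytoid dendritic cell genes called higher, and 2 of 13 B cell and 3 of 4 red cell markers called higher thus occurred in the same library. How far each moved the FPKM of the others was not tested.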

How the data were processed

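The 36 markers and the other gene lists were chosen with earlier results of these data known. Each deposited table holds the FPKM of 1 library by gene symbol, per the file headers. Cufflinks 2.0.2, TopHat 1.3.2, Bowtie2 2.0.0 and build mm10 appear, with no role, per the submitters' processing notes; annotation, filters and strand setting are not given in the sources used here. Per the labels' protocols, the TruSeq v2 RNA kit was used on RNA from a TRIzol and Picopure extraction.

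Rows sharing a symbol (240 symbols) were summed, 779 symbols of small RNA genes were left out, and 22479 symbols found in all 4 tables were used (Python 3.11.15, pandas 2.3.3). Differences are of log2(FPKM + 1). A gene was measured at 1 FPKM in at least 1 library and called at a difference of 1. All 36 markers are named, with up to 3 genes of each other list by mean FPKM and those a result turns on. Depth came from low values of genes with 1 transcript over 2000 bases in GENCODE M21 (GRCm38, the assembly called mm10), less 150 bases. In the 4 libraries 74.6% to 77.0% of values worth about 1 to 4 fragments lay within 0.15 of a whole fragment. Fragments of multi-transcript genes use the median length and are approximate. The depth estimate and the calls were tested on simulated data. A planned search of protein sequences was not run.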

Additional observations from a re-analysis of the deposited data

Results flagged for a closer look

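Among markers measured in both genotype pairs, the KO to WT difference of 6 had opposite signs in the 2 cell types, with the difference in at least 1 cell type past 2-fold. Ly86, Ctsh and Alas2, below 1 FPKM in both iNKT libraries, are not counted. The difference between cell types was not tested, since each rests on 1 library per group. Expressed as the CD44hi log2 difference minus the iNKT one it was 3.05 for Cd72 (0.60 in CD44hi, -2.44 in iNKT) and 2.74 for Tyrobp, the only 1 of the 6 past 2-fold in both (1.32 and -1.42). It was 1.99 for Fcer1g and 2.44 for Hba-a1, where the interval of the iNKT ratio (0.798, 0.505 to 1.26) included 1. It was 1.54 for C1qc, whose KO iNKT value stood on an estimated 2.43 fragments. The CD44hi ratio of C1qc (1.05, 0.952 to 1.15) also included 1 in its interval, and with equal totals it was 0.997, so that the signs were then the same. For Pou2af1 it was -2.11, with the KO library higher in iNKT and lower in CD44hi.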

How the results depend on the processing

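No paired analysis was possible because each group holds 1 library, and none could be left out. Of the alternative values for counts, sums and medians, 89 stayed within 1.5 times the count or within counting error, 25 moved further and 2 turned direction. Scaling by the T cell genes moved the median log2 difference of all genes from 0.01 to 0.40 in the CD44hi pair and from 0.06 to -0.37 between cell types in WT, and by less than 0.1 in the other 2 comparisons. Under it 16 markers were called higher in KO CD44hi in place of 9, beside 4.8% of all measured genes in place of 2.44%, and the ratios of sums were 2.07 (B cell), 2.28 (myeloid) and 6.06 (red cell). With equal totals they were 1.45 for B cell and 1.61 for myeloid markers.

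In the iNKT pair the calls were few: higher calls were 2 with a pseudocount of 0.1 (9.07% of all measured genes), 0 with 5 (1.83%) and 0 with a minimum of 5 FPKM (4.66%), and lower calls 1 with a pseudocount of 5 (1.60%). The iNKT ratio of sums for B cell markers, 0.366, turned to 2.21 without Cd72 and to 1.43 without members known in plasmacytoid dendritic cells. For myeloid markers it went from 0.831 to 0.534 without Cst3, their highest member, and to 0.695 without the plasmacytoid ones. The median ratio went from 0.617 to 0.841 at 5 FPKM. The red cell ratio was 2.15 without Hba-a1, on values near 0.

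In the CD44hi pair, leaving out members known in plasmacytoid dendritic cells gave 1.70 (sums) and 1.65 (median) for B cell markers and 1.04 and 1.07 for myeloid markers. Myeloid sums gave 1.52 without Tyrobp and, an alternative chosen after seeing the data, 1.75 without Cst3 (0.534 in iNKT). Medians were 1.40 for myeloid and 4.44 for red cell markers at 5 FPKM in both, and 1.25 and 4.44 without members known in NK or activated T cells. Of single called differences, 579 alternative values kept the call, 45 lost it and 0 changed sign; of those lost, 18 were still past 2-fold but under the minimum of 5 FPKM. iNKT values under about 0.3 FPKM rest on 3 fragments or fewer in 2 kilobases. The cause of each change was not tested, other than members left out.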
